A study of Camponotus fellah with 299 samples.

Results

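The 60 gene models described here are weakly expressed in the brain of the carpenter ant Camponotus fellah. They reached a set level in more ants at the mature end of the colony than at the low-maturity end. They were taken from 14664 gene models in the count table, of which 6481 had a median below 5 CPM (counts per 1000000 counted reads) over all 299 ants. For each of these, the share of ants with 1 CPM or more at low maturity was subtracted from that share at high maturity. This was done in each of 3 colonies, and the 60 gene models whose smallest difference was highest were kept. The members were therefore chosen on the measured values themselves, and their rise from the low to the high end is a description and not a test.

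Each library came from the brain of a single ant of colony 2, 3 or 4, taken after the behaviour of the colony had been followed for a week. The labels give no genotype, strain or treatment that sets ants apart, so the ants differ by colony, age in months, body size, tallies of behaviour and a maturity value from 0 to 1. Deposited maturity rose with age in colonies 2 and 3, with Spearman's rho of 0.725 and 0.786, and fell with it in colony 4, with rho of -0.708, so it was turned (1 minus the value) in colony 4. Low-end ants had an oriented maturity below 0.25 and high-end ants above 0.75: 38, 55 and 69 against 39, 24 and 24 ants in colonies 2, 3 and 4. Another 10, 19 and 11 ants lay between the ends, and 10 ants had none of these labels. Mean age was 9.99 ± 6.80 months (SD, n = 162) at the low end, 18.5 ± 9.80 (SD, n = 40) between and 25.0 ± 9.59 (SD, n = 87) at the high end. Only ants at the ends entered the choice of members, apart from the bound on the median.

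Division of labour in ant colonies commonly follows age: young workers stay near queen and brood, and older workers guard or forage outside. The change of task is known to go along with changes in the brain, in hormone levels and in gene expression. The labels do not define maturity; it was read here as the social network position named in the title of the series. The identifiers carry no gene names and the files do not pair them with any, so no role can be given to a member, no list of pathway genes could be matched, and the brain label could not be checked against marker genes.

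The libraries held between 19.8 and 73.2 M reads in all (M stands for 1000000), so a level of 1 CPM rested on between 19.8 and 73.2 reads. Low-end libraries had a median total of 37.8 M and high-end libraries of 38.9 M. All 60 members passed the filter on low counts in each test described here. Their medians over all ants ran from 6 to 60 reads.

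Few of the members were silent in low-maturity brains, so "switched on" describes the threshold more than the transcripts. At the low end 34 of the 60 had at least 1 read in each of the 162 ants, and 5 had no read in more than 10 of them. Median levels over the low end ran from 0.0568 to 1.54 CPM across members, with a middle value of 0.791 CPM. In whole brains, a higher level per cell and more cells expressing a gene cannot be told apart. Over the high end they ran from 0.498 to 2.40 CPM, with a middle value of 1.32 CPM. The median crossed 1 CPM between the ends in 27 members, was at or above 1 CPM at both ends in 16, and stayed under 1 CPM at both in 17. The ratio of the high-end to the low-end median was between 1.02 and 8.77, with a median over members of 1.69. It was over 1.5 in 37 members and over 2 in 18. In all 60 members the high-end median was above the low-end median in each colony, which the choice of members favours, and in all 60 the ranges of the ends overlapped.

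**Figure D1:**
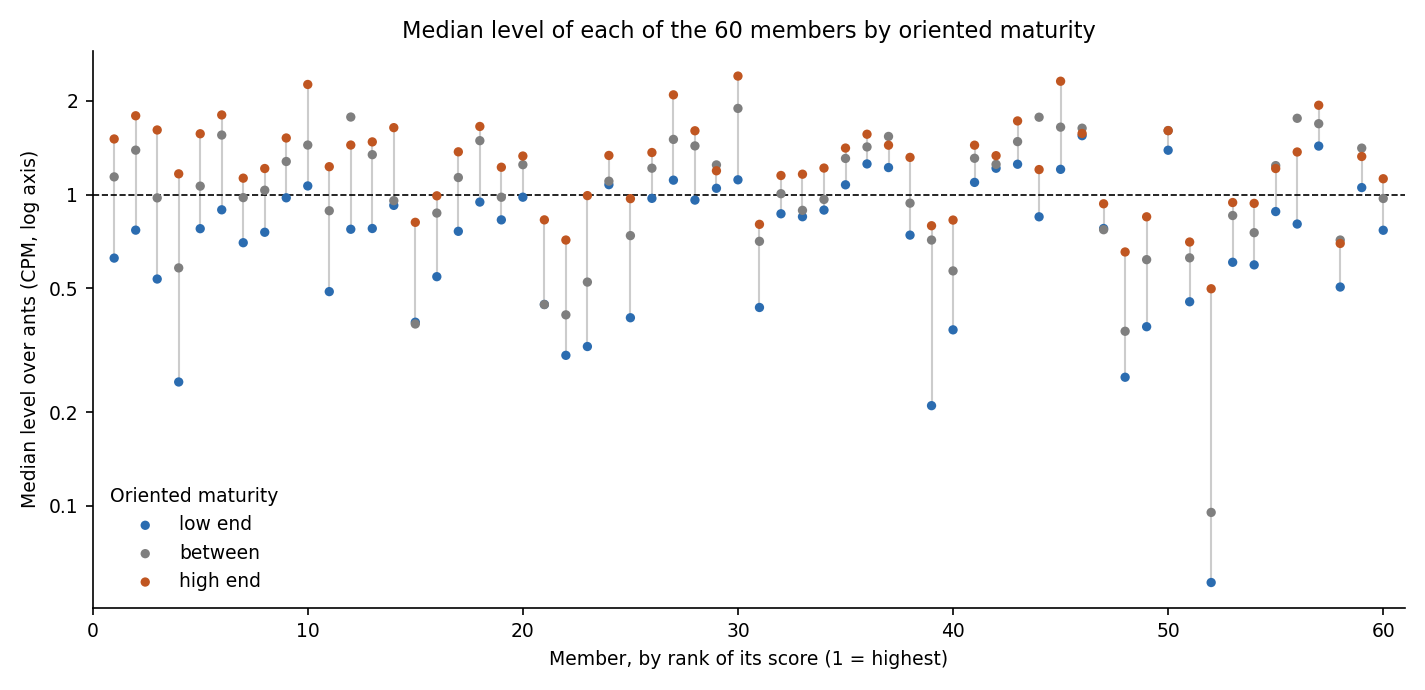
Median level of each of the 60 members (CPM, log axis) over low-end ants (blue), ants between the ends (grey) and high-end ants (orange), in order of score; grey lines join the ends and the dashed line is 1 CPM. In 27 members the line of 1 CPM lies between the medians of the ends, in 16 both are at or above it and in 17 both are below.

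The 2 highest scores belonged to evm.model.ctg43.23 and evm.model.ctg109.32. The lowest, median and highest level of evm.model.ctg43.23 were 0.0788, 0.625 and 2.49 CPM at the low end and 0.636, 1.51 and 3.34 CPM at the high end. It reached 1 CPM in 10.5%, 16.4% and 29.0% of low-end ants of colonies 2, 3 and 4 and in 84.6%, 91.7% and 87.5% of high-end ants. For evm.model.ctg109.32 the low end gave 0.0487, 0.768 and 2.40 CPM and the high end 0.426, 1.79 and 5.37 CPM. It reached 1 CPM in all 24 high-end ants of colony 3, 35 of 39 of colony 2 and 22 of 24 of colony 4. In both gene models the high-end ants were mostly above 1 CPM and the low-end ants mostly below it, with an overlapping zone of ants from either end.

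The gene model evm.model.ctg91.52 had the most ants without a read among the 4 highest scores. No read was found in 15 of 162 low-end ants and 1 of 87 high-end ants. Its lowest, median and highest levels were 0, 0.25 and 1.72 CPM at the low end and 0, 1.17 and 4.04 CPM at the high end, a ratio of medians of 4.66. Only 6 low-end ants reached 1 CPM, against 55 high-end ants. The gene model evm.model.ctg31.123 had a low-end median of 0.535 CPM (0 to 1.83) and a high-end median of 1.61 CPM (0.225 to 5.55). Its high-end median was 1.08 CPM in colony 2, where 21 of 39 ants reached 1 CPM, and 1.80 and 1.77 CPM in colonies 3 and 4, where 21 of 24 ants did in each.

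**Figure D2:**
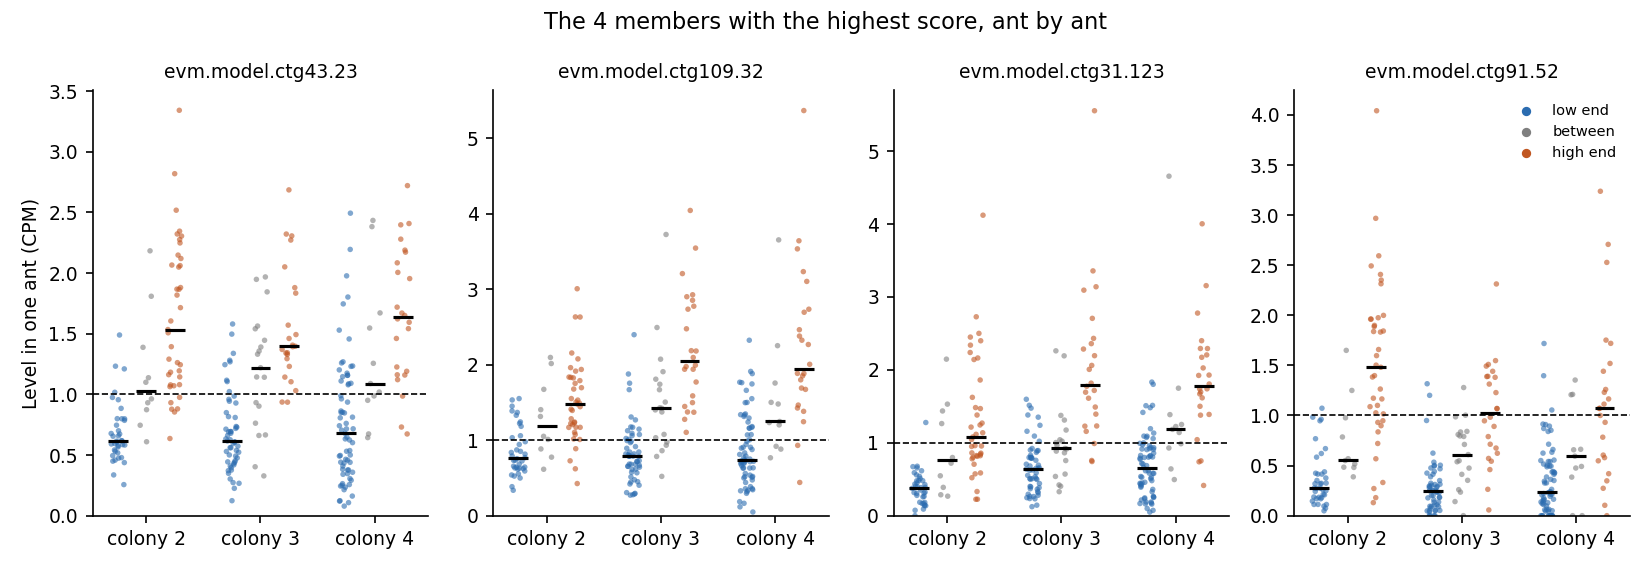
Level (CPM) of the 4 members with the highest score in each ant of colonies 2, 3 and 4, by low end (blue), between (grey) and high end (orange); black bars are medians and the dashed line is 1 CPM. High-end medians of evm.model.ctg43.23 are 1.53, 1.39 and 1.64 CPM in colonies 2, 3 and 4, and the points of both ends overlap in each panel.

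At the other end of the list the differences were small. The last members were evm.model.ctg22.21 and evm.model.ctg31.27, with scores of 11.3 and 11.1 percentage points, and the next gene models outside were evm.model.ctg735.5 and evm.model.ctg74.47, both at 10.9. The medians of evm.model.ctg22.21 were 1.05 CPM (low end) and 1.32 CPM (high end), and those of evm.model.ctg735.5 were 1.05 and 1.41 CPM. So the limit of 60 cut through gene models with alike levels. The top score was 58.5 percentage points.

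Counting how many of the 60 members reached 1 CPM in an ant gave a profile of each brain. The count was between 7 and 39 in low-end ants, with a median of 21, and between 23 and 55 in high-end ants, with a median of 41. The 40 ants between the ends, which did not enter the choice, had counts from 21 to 46 with a median of 31.5: 31 in colony 2, 30 in colony 3 and 33 in colony 4. Of the 60 members, 47 had a median in these ants between those of the ends, 10 at or above the high end and 3 at or below the low end. Within the ends the count showed Spearman's rho of -0.11 (low end, n = 162) and -0.05 (high end, n = 87) with library total.

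Age ran along with the count inside each end. Among low-end ants the median count was 18.5 up to 12 months of age, 26.5 from 13 to 24 months (42 ants) and 31 above 24 months (8 ants). Among high-end ants it was 33 (9 ants), 38 (30 ants) and 43 (48 ants) in the same bands. Between the ends it was 27, 31 and 38, in 9, 20 and 11 ants. Old low-end ants stood near young high-end ants in this count, with ranges of 26 to 38 and 23 to 43. The members were chosen to differ between the ends, so counts of ants from different ends are compared as a description only. Only 2 of the 8 old low-end ants came from colony 3 and 6 from colony 4, none from colony 2. Of the 9 young high-end ants, 6 came from colony 2 and 3 from colony 4.

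**Figure D3:**
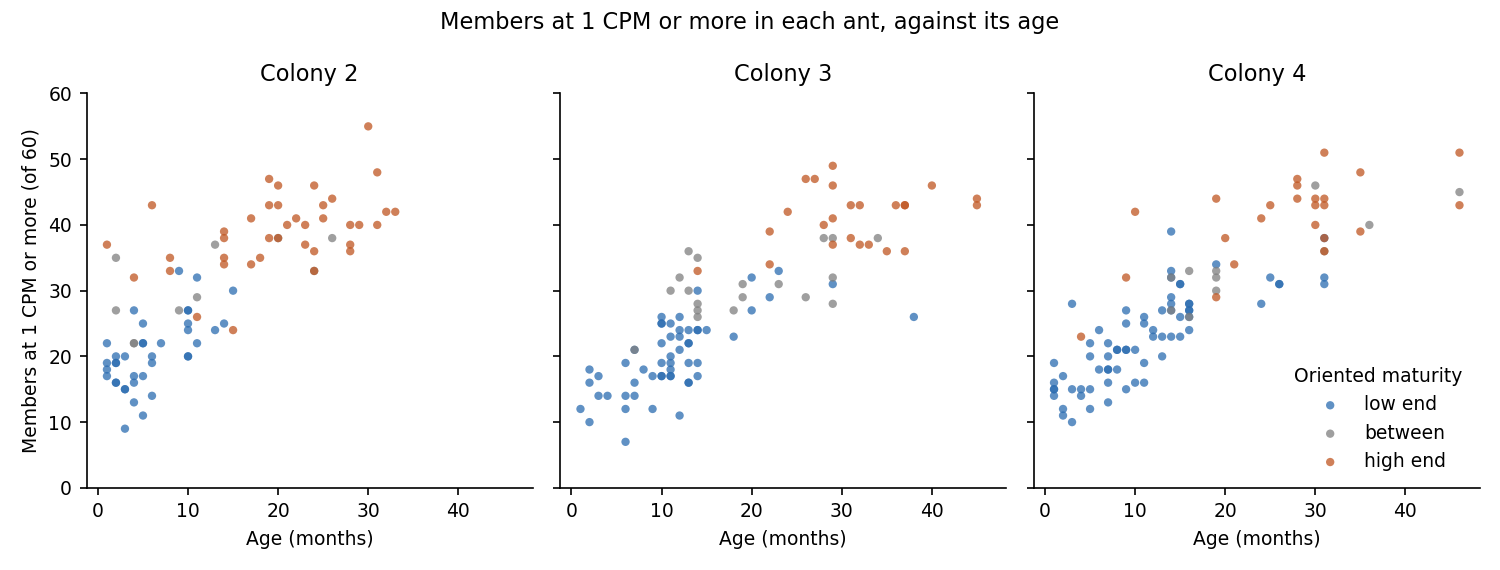
Number of the 60 members at 1 CPM or more in each labelled ant against its age in months, with 1 panel per colony and the ants coloured by low end, between and high end. Inside each end older bands have higher median counts: 18.5, 26.5 and 31 in low-end ants and 33, 38 and 43 in high-end ants. The choice of members sets the ends apart.

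Whether the members move with age inside the low end was tested in its 162 ants, with colony in the model. By edgeR's quasi-likelihood test with Benjamini-Hochberg adjustment over 10505 genes (adjusted p below 0.05), 27 of the 60 members rose with age and 1 fell. Over all genes, 9.29% rose and 9.49% fell. The median slope of the members was 0.34 log2 per 12 months, against -0.0019 over all genes. With oriented maturity added to the model, 22 of the 28 remained called, beside 6.37% of all genes in either direction. Without colony 4, which holds 69 of the 162 ants, 12 members were called, and over all genes 2.12% were called in either direction, against 18.8% with all colonies.

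Among the highest scores, evm.model.ctg109.32 rose with age at the low end. Its median was 0.686 CPM (0.0487 to 1.76) up to 12 months, 1.07 CPM (0.338 to 1.91) from 13 to 24 months and 1.42 CPM (0.788 to 2.40) above 24 months. The bands overlapped, and the slope was 0.79 ± 0.09 log2 per 12 months (SE, n = 162; edgeR adjusted p = 3.03e-12). Slopes of 0.65 ± 0.10 for evm.model.ctg43.23 and 0.77 ± 0.12 for evm.model.ctg31.123 were called as well (SE, n = 162; adjusted p by edgeR of 2.06e-07 and 1.71e-07). Above 24 months, 7 of 8 low-end ants reached 1 CPM of evm.model.ctg43.23 (87.5%), against 14.3% of those up to 12 months.

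The gene model evm.model.ctg91.52 rose with age too, with a slope of 0.81 ± 0.19 (SE, n = 162; adjusted p = 0.000928 by edgeR), but its level in old low-end ants stayed low. Its median was 0.213, 0.311 and 0.564 CPM in the 3 age bands of the low end, and none of the 8 ants above 24 months reached 1 CPM, the highest being at 0.914 CPM. Young high-end ants, up to 12 months, had a median of 0.783 CPM (0.104 to 1.98, 9 ants). High-end ants from 13 to 24 months had 1.35 CPM, and those above 24 months 1.20 CPM. Low-end and high-end ants of like age differ here by the contrast that chose the members, so this is a description.

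The largest slopes on age at the low end were those of evm.model.ctg45.42, at 1.13 ± 0.34, and evm.model.ctg38.52, at 0.92 ± 0.21 (SE, n = 162; adjusted p of 0.0105 and 0.000508 by edgeR). Medians of evm.model.ctg38.52 were 0.387, 0.707 and 1.13 CPM from the youngest to the oldest band. Levels of evm.model.ctg45.42 were skewed, with medians of 0.184, 0.334 and 0.676 CPM in the 3 bands and a highest value of 13.9 CPM. Without that ant the slope was 0.98 ± 0.31 (SE; edgeR adjusted p = 0.016), and with oriented maturity in the model its adjusted p was 0.0893. The only called fall was that of evm.model.ctg235.5, at -0.29 ± 0.09 (SE; edgeR adjusted p = 0.0146). Its medians over the pooled colonies, which make up different shares of each band, were 0.921, 0.735 and 0.865 CPM. Without colony 4 these slopes were 1.47 ± 0.49, 0.71 ± 0.29 and -0.20 ± 0.12 (SE), none of them called (edgeR adjusted p of 0.105, 0.264 and 0.601).

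Position inside the low end, from maturity 0 to 0.25, was tied to the members as well. With colony in the model 20 members rose over this stretch and none fell (edgeR, adjusted p below 0.05; 28 rose and none fell at an unadjusted p below 0.05), where 8.58% of all genes rose and 8.41% fell (14.7% and 14.3% unadjusted). Of these 20, 13 were also called for age in the same ants. The median slope was 0.52 log2 per 0.25 of maturity, against -0.0031 over all genes. With age in the model 5 members were called, each of them among the 20 and rising. Over all genes 5.79% were called in either direction. Counted in either direction, the members' share was near the one over all genes. The share of all genes that rose in this fit is not given here. Without colony 4 the count was 4 (1.45% of all genes in either direction) and without colony 2 it was 13 (10.8%), against 17% of all genes with all colonies.

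Those 5, chosen after their values were seen, were evm.model.ctg224.5, evm.model.ctg1.117, evm.model.ctg2.49, evm.model.ctg34.58 and evm.model.ctg94.2. The median of evm.model.ctg224.5 was 0.261 CPM in the 74 ants with a maturity up to 0.02, 0.489 CPM in the 62 from there to 0.1 and 0.808 CPM in the 26 above that. None of the 74 ants reached 1 CPM, while 7 of 62 and 10 of 26 did. Its slope was 2.30 ± 0.35 log2 per 0.25 (SE, n = 162; edgeR adjusted p = 1.38e-07), and 1.84 ± 0.38 with age in the model (SE; edgeR adjusted p = 0.000509).

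The 2 largest slopes on low-end maturity came from gene models with a long upper tail. For evm.model.ctg45.42 the slope was 3.26 ± 1.04 log2 per 0.25 (SE; edgeR adjusted p = 0.0189), and 2.51 ± 1.06 with age in the model (SE; edgeR adjusted p = 0.156). Without colonies 2, 3 and 4 in turn it was 3.22 ± 1.29, 3.37 ± 1.35 and 3.15 ± 1.14 (SE), not called in any of the 3 (edgeR adjusted p of 0.0947, 0.0575 and 0.178). The slope of evm.model.ctg1.117 was 3.22 ± 0.64 (SE; edgeR adjusted p = 6.75e-05), with medians of 0.582, 0.954 and 1.19 CPM in the 3 stretches and a highest value of 54.0 CPM. Without that ant the slope was 1.97 ± 0.58 (SE; edgeR adjusted p = 0.00899).

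Brood care ran the other way. In the 162 low-end ants, 18 members were lower in ants seen tending brood more and none was higher (edgeR, adjusted p below 0.05; 32 and none at an unadjusted p below 0.05). Over all genes 7.35% were lower and 5.84% higher (14.7% and 12.2% unadjusted). The median number of members at 1 CPM was 25.5 in the 18 ants with a tally of 0, 23 in the 75 ants with 1 to 10, and 17 in the 69 ants above 10. The median age in these groups was 12, 11 and 6 months. With oriented maturity in the model no member was called (edgeR; 9 at an unadjusted p below 0.05), and 0.019% of all genes were, in either direction, against 13.2% without that term. Without colony 2 the count was 9 (9.85% of all genes), and without colony 4 it was 1 (0.107%), so calls over all genes dropped too.

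The steepest falls with brood care were -0.49 ± 0.13 log2 per doubling of the tally plus 1 for evm.model.ctg45.42 and -0.45 ± 0.09 for evm.model.ctg491.1 (SE, n = 162; edgeR adjusted p of 0.00713 and 0.00015). Medians of evm.model.ctg491.1 were 1.14, 0.841 and 0.697 CPM at tallies of 0, 1 to 10 and above 10. The highest value, 40.7 CPM, lay in an ant with a tally of 0, and without it the slope was -0.32 ± 0.09 (SE; edgeR adjusted p = 0.00776). Without colony 4 the slopes were -0.15 ± 0.17 and -0.20 ± 0.13 (SE), neither called (edgeR adjusted p of 0.996 and 0.930).

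At the high end, age was tested in 87 ants. Here 7 members rose with age and none fell (edgeR, adjusted p below 0.05; 23 rose and none fell at an unadjusted p below 0.05), where 1.33% of 10454 genes rose and 0.976% fell, 2.31% in all (8.88% and 7.77% unadjusted). The median slope of the members was 0.15 log2 per 12 months, against 0.0046 over all genes. DESeq2 called 11 members (2.97% of all genes in either direction) and limma-voom 12 (2.3%). Without colonies 2, 3 and 4 in turn, 4, 3 and 1 members were called, beside 0.275%, 1.04% and 0.203% of all genes. Of the 7, 6 had also risen with age at the low end, in other ants, as had 32.6% of all genes that rose at the high end and were tested throughout.

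The gene model evm.model.ctg109.28 rose at both ends. High-end medians were 1.10 CPM (0.0683 to 2.12) up to 12 months, 1.46 CPM (0.434 to 3.61) from 13 to 24 months and 1.85 CPM (0.675 to 9.66) above that. The slope was 0.57 ± 0.12 log2 per 12 months (SE, n = 87; edgeR adjusted p = 0.00333), and 0.49 ± 0.11 without the ant at 9.66 CPM (SE; edgeR adjusted p = 0.0142). At the low end it was 0.55 ± 0.12 (SE, n = 162; edgeR adjusted p = 0.000195). Without colony 2 or colony 4 the high-end slope was 0.63 ± 0.16 and 0.56 ± 0.14 (SE; edgeR adjusted p of 0.0706 and 0.0625).

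The largest slope on age at the high end, 1.43 ± 0.34 for evm.model.ctg8.121 (SE, n = 87; adjusted p = 0.0131 by edgeR), rested on 1 ant of colony 3 at 1362 CPM, aged 45 months. The medians in the 3 age bands were 1.37, 1.44 and 1.42 CPM. Without that ant the slope was 0.10 ± 0.13 (SE; edgeR adjusted p = 0.799) and 5 members in all were called, 4 of them among the 7.

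**Figure D4:**
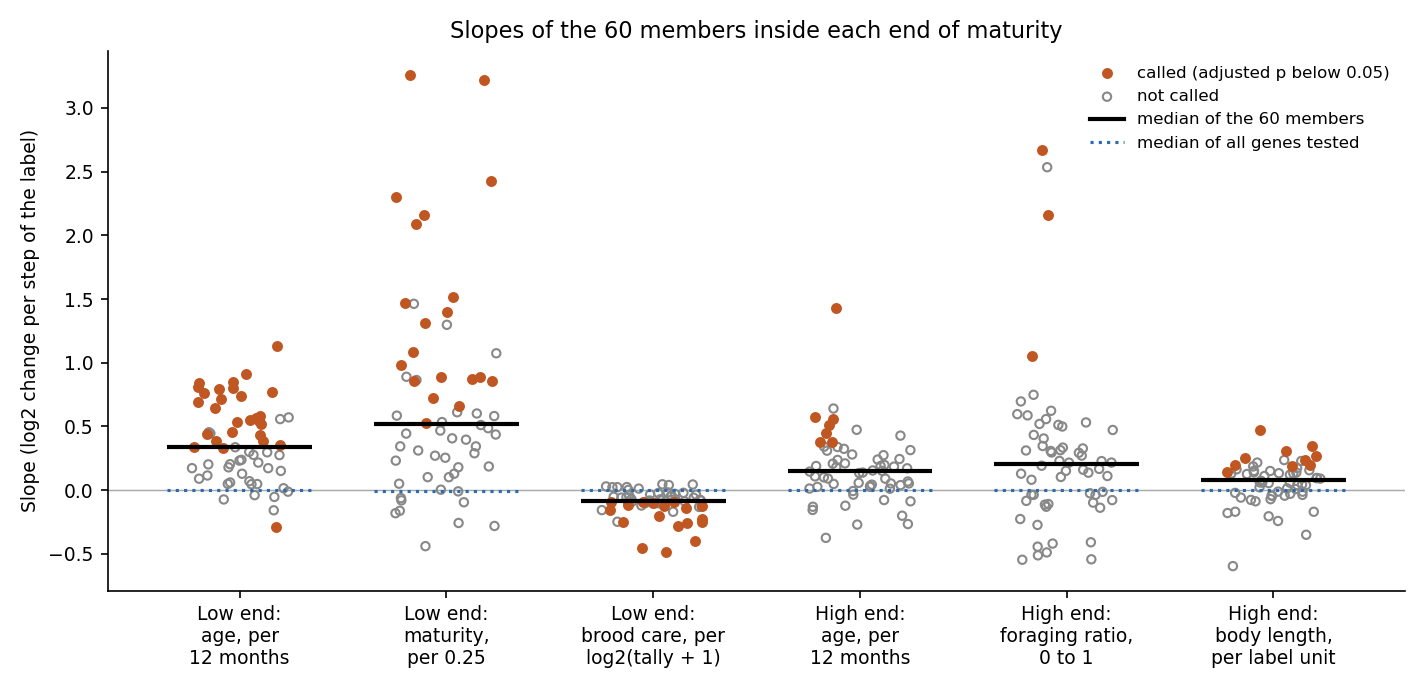
Slope of each of the 60 members (log2 change per step of the label on the x axis) in 6 tests inside the low end (162 ants) or the high end (87 ants); filled points were called by edgeR, black bars are the members' medians and dotted lines the medians over all genes. The members' median lies at 0.34 for low-end age, 0.52 for low-end maturity and -0.09 for brood care, with all-gene medians near 0.

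Foraging among mature ants touched few members. Across the 87 high-end ants 3 members rose with the nurse-forage ratio, read as rising with foraging, and none fell (edgeR, adjusted p below 0.05; 4 rose and 3 fell at an unadjusted p below 0.05), against 0.469% and 0.612% of all genes (4.31% and 4.32% unadjusted). The counts at 1 CPM had medians of 41.5 at a ratio of 0 (14 ants), 37.5 up to 0.5 (22 ants) and 42 above 0.5 (51 ants). Limma-voom called 1 member (0.88% of all genes in either direction). The count was 0 without colony 2 (edgeR; 7 at an unadjusted p below 0.05) and 1 without colony 3, beside 0.245% and 0.29% of all genes. With runs of 10 ant numbers in place of colony it was 1, beside 0.105%.

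Of these 3, evm.model.ctg30.8 and evm.model.ctg168.23 showed the change in their medians. Those of evm.model.ctg30.8 were 0.545 CPM (0.212 to 1.79) at a ratio of 0, 0.619 CPM (0.135 to 3.77) up to 0.5 and 1.42 CPM (0.171 to 7.15) above 0.5. Above 0.5, 31 of 51 ants reached 1 CPM of it against 1 of 14 at a ratio of 0. The bands pool the colonies, which make up different shares of each band. Over all high-end ants the medians of evm.model.ctg30.8 were 0.813, 0.596 and 1.28 CPM in colonies 2, 3 and 4. Its slope was 2.16 ± 0.34 log2 from a ratio of 0 to 1 (SE, n = 87; edgeR adjusted p = 1.59e-05), and 1.95 ± 0.53 without colony 2 (SE; edgeR adjusted p = 0.0893). Between the ends evm.model.ctg30.8 was as low as at the low end, at a median of 0.443 CPM against 0.444 CPM, with 2 of 40 ants at 1 CPM. For evm.model.ctg45.42 the slope of 2.67 ± 0.60 (SE; edgeR adjusted p = 0.00863) went with medians of 0.722, 0.866 and 0.701 CPM. Without the ant at 41.0 CPM it was 1.87 ± 0.67 (SE; edgeR adjusted p = 0.264), and 1 member in all was called. The other called member, evm.model.ctg168.23, chosen after its values were seen, had medians of 1.33, 1.58 and 2.02 CPM and a slope of 1.05 ± 0.26 (SE; edgeR adjusted p = 0.0232). It was not called without colony 2 or colony 3, by limma-voom, or with runs of 10 ant numbers in place of colony. Nor was it called without the ant at 41.0 CPM of evm.model.ctg45.42.

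Body length, whose unit the labels do not give, was tied to 10 members among high-end ants, all of them higher in longer ants (edgeR, adjusted p below 0.05; 25 higher and 4 lower at an unadjusted p below 0.05). Over all genes 6.99% were higher and 6.5% lower (13.8% and 13.7% unadjusted). In either direction 16.7% of the members were called, near the 13.5% of all genes. The 29 shortest, 29 middle and 29 longest ants had median counts at 1 CPM of 38, 41 and 43, and median ages of 21, 24 and 30 months. With age in the model 8 members were called (7.19% of all genes in either direction), 7 of them among the 10 and higher, while evm.model.ctg30.8 was lower in longer ants. Without colony 2 the count was 0 (edgeR; 7 at an unadjusted p below 0.05), beside 0.00981% of all genes, and without colony 4 it was 6, beside 9.02%, against 13.5% with all colonies.

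The consecutive gene models evm.model.ctg155.6 and evm.model.ctg155.7 both rose with body length, by 0.24 ± 0.05 and 0.25 ± 0.06 log2 per unit (SE, n = 87; edgeR adjusted p of 0.00109 and 0.00172). Medians of evm.model.ctg155.6 were 0.932, 1.19 and 1.42 CPM in the shortest, middle and longest ants. The largest slopes were 0.47 ± 0.14 for evm.model.ctg94.2 and 0.35 ± 0.08 for evm.model.ctg29.168 (SE; edgeR adjusted p of 0.0119 and 0.00139). Medians of evm.model.ctg94.2 did not follow length, at 0.810, 1.05 and 0.936 CPM, and without the ant at 71.2 CPM the slope was 0.16 ± 0.13 (SE; edgeR adjusted p = 0.446). Without colony 2 or colony 4 the slope of evm.model.ctg29.168 was 0.42 ± 0.13 and 0.27 ± 0.09 (SE; edgeR adjusted p of 0.347 and 0.0523), not called.

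Between the ends edgeR called no gene for maturity in the 40 ants, members included (0% of 10433 genes at an adjusted p below 0.05). Limma-voom called none either. Among the members 14 rose and 5 fell at an unadjusted p below 0.05, where 3.18% of all genes rose and 3.56% fell at that level. The lowest p of a falling member was that of evm.model.ctg12.79, chosen after its values were seen, with a slope of -3.42 ± 0.99 (SE, n = 40; edgeR adjusted p = 0.567). The median slope was 0.59 log2 from maturity 0 to 1, against 0.01 over all genes, with 45 of 60 slopes above 0. Slopes of single members ran from -10.4 to 3.64 log2. DESeq2 called 0.0479% of all genes and 2 members, evm.model.ctg359.8, which had the highest median at the high end (2.40 CPM), and evm.model.ctg109.28. The edgeR slope of evm.model.ctg109.28 was 3.64 ± 0.86 log2 (SE, n = 40; adjusted p = 0.384), with a median of 0.857 CPM in the 20 ants up to 0.5 and 1.41 CPM in the 20 above. The median age of these ants was 14 and 19.5 months. With age in the model its slope was 1.59 ± 0.66 (SE, edgeR adjusted p = 0.998). In that fit the members' median slope was 0.38, no member was called, and 12 had an unadjusted p below 0.05 in either direction.

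The members lie on 48 contigs, and 3 groups of neighbouring numbers stood out. The members evm.model.ctg109.28, evm.model.ctg109.31 and evm.model.ctg109.32 share a contig. The models numbered between them, not members, rose with maturity over all labelled ants, evm.model.ctg109.29 by 0.74 ± 0.19 and evm.model.ctg109.30 by 0.98 ± 0.07 log2 (SE, n = 289; edgeR adjusted p of 0.000372 and 4.54e-31). The median of evm.model.ctg109.30 over all ants was 2.10 CPM, and that of evm.model.ctg109.31 was 1.34 CPM. On either side, evm.model.ctg109.27 and evm.model.ctg109.33 fell slightly, by -0.09 ± 0.02 and -0.16 ± 0.02 log2 (SE; edgeR adjusted p of 0.000617 and 5.22e-18). The other groups are evm.model.ctg155.6 with evm.model.ctg155.7, and evm.model.ctg235.5 with evm.model.ctg235.6. The members of each group may share reads if they are near-identical copies or overlap, which was not tested. The strand setting of the counting, which matters for overlaps on opposite strands, was not given.

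Counted over all members, the gene models with the next number up or down on a contig that were not members themselves were taken, and 85 of them could be tested for maturity over the 289 labelled ants. By edgeR 32 of them rose and 18 fell, 37.6% and 21.2%, against 23.4% and 22.2% of all 10457 genes. Their median slope was 0.02 log2, against -0.0012 over all genes. Consecutive numbers were taken from the identifiers, and no annotation was used here to show that such models lie next to each other. These models were tested on the contrast that chose the members beside them. Reads shared with a member would carry its rise into them, and such sharing was not tested. In the same fit 57 of the 60 members were called, which the choice of members sets up and from which nothing is read, beside 45.6% of all genes. The slope of evm.model.ctg44.77 had the opposite sign, at -0.25 ± 0.23 log2 (SE), although 64 of 87 high-end ants and 76 of 162 low-end ants reached 1 CPM of it.

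The measured levels of the members did not vary as a single block from ant to ant. Over the 1770 pairs of members, Spearman's rho of log2(CPM + 1), centred within colony, had a median of 0.06 over the 87 high-end ants and 0.08 over the 162 low-end ants. These values share the ants and their library totals. Members had medians of 6 to 60 reads, so noise in counting enters these values too, and pairs of other genes were not compared. Only 13 pairs had a rho above 0.5 at the high end and 5 at the low end. Those 13 pairs, chosen after their values were seen, linked 14 members into 3 sets.

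The first set holds evm.model.ctg155.6 and evm.model.ctg155.7, evm.model.ctg109.32, evm.model.ctg109.28, evm.model.ctg31.123, evm.model.ctg359.8 and evm.model.ctg164.59. In the second, evm.model.ctg38.52 and evm.model.ctg128.14 had a rho of 0.73 at the high end and 0.69 at the low end, the highest of all pairs at either end, and evm.model.ctg59.96 and evm.model.ctg12.79 were linked to them. The third set was evm.model.ctg45.42 with evm.model.ctg491.1 and evm.model.ctg1.117, with rho of 0.55 for both links at the high end and of 0.59 and 0.49 at the low end. The pair evm.model.ctg109.31 and evm.model.ctg109.32 had 0.49 and 0.35, and evm.model.ctg155.6 and evm.model.ctg155.7 had 0.67 and 0.47.

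Single ants reached levels far above the rest in some members. In 47 of the 60 no ant exceeded 10 CPM, while 8 had an ant above 40 CPM. In evm.model.ctg314.7, chosen after its values were seen, 23 of 299 ants exceeded 10 CPM, the highest at 134.7 CPM, against a median over all ants of 0.133 CPM. No read of it was found in 63 of 162 low-end ants and 2 of 87 high-end ants, and its medians were 0.0568, 0.0954 and 0.498 CPM at the low end, between and at the high end. High single values were not confined to mature ants: the highest ant of evm.model.ctg128.14, at 155.3 CPM, stood at the low end and was 5 months old, and that of evm.model.ctg491.1 was a low-end ant of 3 months.

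Across the 7 tests, made inside a single stretch of maturity each, 42 of the 60 members (70%) were called at least 1 time and 18 were not. Of the 10363 genes tested in all 7, 34.9% were called at least 1 time. At the low end 10 members (16.7%) were called for age, maturity and brood care alike, as were 7.34% of those genes; these labels go together in the same ants. Slopes differed between colonies (edgeR, interaction with colony, adjusted p below 0.05) in 1 member in the test of high-end age, evm.model.ctg8.121, where 0.43% of all genes did. In the other 6 tests no member did, where the shares of all genes were 0.00952% for low-end age, 0.133% for low-end maturity, 0.0286% for brood care, 0.00957% for foraging and 0% for the others. Each p-value here reflects variation among ants sampled from these colonies, and no label records a batch of sequencing.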

How the data were processed

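The authors deposited raw counts of reads for every gene model, as whole numbers, with 1 library per ant. STAR and featureCounts are the tools that the submitters' processing notes name. Their versions, the build, the annotation and the strandedness used in counting are not given in the sources used here. Per the labels' protocols, libraries were stranded mRNA libraries. CPM was the count divided by the column sum, times 1000000. The members and lists were chosen with earlier results of these data known.

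Tests used edgeR 4.0.16 (R 4.3.3) quasi-likelihood F-tests with robust estimates, TMM, filterByExpr by colony (minimum count 10) on the ants of that test, colony as covariate and p-values adjusted by Benjamini-Hochberg over each whole table; standard errors came from slope and F. Tallies were log2 of the tally plus 1. Alternatives were RLE factors, no filter, DESeq2 1.42.0, limma-voom (limma 3.58.1), added covariates, each colony left out, runs of 10 ant numbers in place of colony, and the highest ant left out.

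Named were the 4 highest scores, the 2 last inside and 2 first outside, up to 2 called members with the largest slope of each sign per test, consecutive numbers on a contig, and the highest high-end median; others are said to be chosen after their values were seen. Descriptions ran in Python 3.11.15. On simulated counts, changes of 0.25 log2 per SD of the label were recovered in 83.6% of 67 genes for maturity between the ends (10433 genes). For age at the low end they were recovered in 97.0% of 67 genes (10505 genes). The changed genes were drawn at random from all genes tested, so recovery among genes as weakly expressed as the members was not measured. Each simulated gene had the same base level in all colonies, so differences between colonies were not part of the simulation.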

Additional observations from a re-analysis of the deposited data

Results flagged for a closer look

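Of 21 named members, 6 had a highest ant that stood apart from the other 9 among the 10 ants of colony 2 between the ends. This was judged by the gap to the next ant over the range. About 1 in 20 such groups is marked by chance if values are normally distributed. The rate for CPM with a long upper tail was not worked out. The 19 and 11 ants between the ends in colonies 3 and 4 were not checked in this way. The highest ants were at 16.91 CPM for evm.model.ctg38.52 (next 3.08), 19.53 CPM for evm.model.ctg8.121 (next 2.80), 3.957 CPM for evm.model.ctg1.117 (next 2.18), 3.273 CPM for evm.model.ctg359.8 (next 1.89), 1.666 CPM for evm.model.ctg29.168 (next 0.909) and 1.204 CPM for evm.model.ctg30.8 (next 0.776).

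The age slope of evm.model.ctg8.121 at the high end differed between colonies (edgeR interaction, adjusted p = 4.522e-11). Fitted alone, colonies 2, 3 and 4 gave -0.22 ± 0.15, 4.50 ± 0.61 and 0.25 ± 0.21 log2 per 12 months (SE). Without the colony 3 ant at 1362 CPM, a setting chosen after seeing the data, the colony 3 slope was 0.52 ± 0.33 (SE) and the adjusted p of the interaction 0.99992.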

How the results depend on the processing

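Which gene models were members depended on the level taken as reached: 22 of the 60 were kept at 0.5 CPM and 17 at 2 CPM. Between 43 and 60 were kept with other ends of maturity, other bounds on the median, TMM-scaled CPM or 2 of the 3 colonies. Inside the ends, counts of called members stayed within 1.5 times in 40 of 60 settings. Between the ends the count was 0 in the edgeR test, so a 0 elsewhere says nothing of stability. With colony 4 left out they were 12 for low-end age, 4 for low-end maturity, 1 for brood care, 1 for high-end age and 6 for body length. With colony 2 left out they were 13 for low-end maturity, 9 for brood care, 4 for high-end age, and 0 for foraging and body length (edgeR; 7 each at an unadjusted p below 0.05). Without colony 3 they were 3 for high-end age and 1 for foraging. Age in the model left 5 for low-end maturity, and oriented maturity 0 for brood care (edgeR; 9 at an unadjusted p below 0.05). Runs of 10 ant numbers in place of colony gave 9 for brood care, 1 for foraging and 6 for body length. DESeq2 gave 2 between the ends and 11 for high-end age, and limma-voom 12 for high-end age and 1 for foraging. The causes were not tested. Runs of ant numbers were not run between the ends. Named slopes kept their sign in all 143 settings tried and lost the call in 33. No paired analysis was possible because each library came from a different ant, with a single maturity value. At 1 CPM and these depths a level rests on 19.8 to 73.2 reads, which limits small differences.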

Other observations

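The 10 ants without age, maturity or behaviour labels entered no comparison. The number of members at 1 CPM or more was 45, 32 and 20 in those of colony 2, 19, 22, 15, 30, 37 and 28 in those of colony 3, and 17 in that of colony 4. Their range, 15 to 45, spans the medians of both ends. The highest level of evm.model.ctg1.117 in any ant, 100.8 CPM, was in an unlabelled ant of colony 3 with 19 members at 1 CPM.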
